A study of Mus musculus with 8 samples.

Results

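Cells that divide must copy their genome without leaving breaks or crosslinked strands behind. A set of 44 genes whose products recognise and repair such damage was examined in the mouse fetal brain after prenatal stress (PS). The set holds the Fanconi anaemia genes and the genes of homologous recombination, the DNA damage checkpoint, end joining and single-strand break repair that were named for this work. Each gene was found by its symbol among the 54752 genes of the deposited count tables, and all 44 were present and passed the filter on low counts.

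Poly(A) RNA was sequenced from E15.5 brains of wild type C57BL/6 mice (substrain C57BL/6Slac). In the stress group, the pregnant dam had been exposed to chronic unpredictable mild stress (CUMS), a changing daily programme of mild stressors, between E5.5 and E14.5, and in the control group the dam was left in its home cage. Each library was 1 brain, with 4 control brains (F36, F37, M30 and M31) and 4 stressed brains (F34, F35, M28 and M29), where F marks a female and M a male. The 4 control brains were littermates, and so were the 4 stressed brains, and an effect of litter and one of condition cannot be told apart. The spread behind every p-value is therefore the spread among littermates. The labels give the tissue as brain, and the study's list of libraries records it as half_whole_brain.

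The Fanconi pathway unhooks crosslinks between the strands of DNA. A core complex of FANC proteins attaches ubiquitin to the pair FANCD2 and FANCI, the ID complex, and the lesion is then passed to nucleases, bypass polymerases and homologous recombination, which copies the lost sequence from the sister chromatid. In the fetal brain the progenitors divide fast, and loss of recombination or end joining genes is known to cost neural progenitors or newborn neurons. Several of these genes are known to be transcribed mainly in dividing cells through E2F sites, and CCAAT boxes and the cell cycle homology region (CHR) are other elements of cell cycle promoters.

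RefSeq promoters (GRCm38.p6, from 250 bases before to 50 bases after a start site) were at hand for 38 of the 44 genes. The 6 without one were Rad50, Fancd2, Xrcc2, Rad54b, Exo1 and Nbn. The promoters were searched on both strands for E2F strings (TTTCCCGC, TTTGGCGC or TTTCGCGC), CHR strings (TTTGAA or TTCGAA) and the CCAAT box (CCAAT), and no string of one motif contains a string of another. An E2F string lay in the promoters of 8 of the 38 genes (21.1%), namely Bard1, Fancg, Clspn, Chek2, Brca2, Topbp1, Xrcc6 and Msh6, against 2.12% of all 27025 genes of the table and 3.72% of the 12321 among them that were tested here. In 6 of the 8 the string lay before the start site, and these stretches are shown with their flanks because the share of this element differs most, as a ratio, from that of all promoters. Bases are written 5′ to 3′ on the strand of the gene, and the capitals mark the matched letters of E2F, with a CHR string also in capitals at the left of Bard1 and a CCAAT box (on the other strand) at the left of Chek2.
Topbp1, chr9:103305188-103305215, + strand: cgctcggttgGCGCGAAAgtcggttccc
Xrcc6, chr15:82016313-82016340, + strand: gggggtggaaGCGGGAAAtgcgagtggg
Fancg, chr4:43010336-43010363, - strand: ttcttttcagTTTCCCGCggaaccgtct
Brca2, chr5:150522443-150522470, + strand: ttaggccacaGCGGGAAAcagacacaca
Bard1, chr1:71103164-71103222, - strand: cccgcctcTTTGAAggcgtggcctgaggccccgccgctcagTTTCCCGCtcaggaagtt
Chek2, chr5:110839787-110839848, + strand: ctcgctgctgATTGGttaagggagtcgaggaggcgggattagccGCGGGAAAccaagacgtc
A CCAAT box was found in 22 of the 38 promoters (57.9%, against 41.1% of all genes and 42.6% of those tested). A CHR string was found in 4 (10.5%, against 21.7% of all genes and 16.5% of those tested). Of the genes that rose with stress, 6 carried a CCAAT box, and those of Rad51ap1 and Brca1 are not shown. The other 4 are given below for comparison with the E2F set (of Clspn, the box nearer to the start site). The capitals mark the box on either strand.
Blm, chr7:80535145-80535194, - strand: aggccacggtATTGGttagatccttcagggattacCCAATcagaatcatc
Clspn, chr4:126556949-126556973, + strand: cctccctcggATTGGtgcaaaccct
Rad54l, chr4:116123726-116123750, - strand: ctgaacgcagCCAATaggggactgt
Xrcc5, chr1:72307242-72307266, + strand: aacttgtggaATTGGttctttttct
Of the 11 genes that rose (below), 9 had a promoter in the table, and 2 of these held an E2F string (Topbp1 and Clspn), 6 a CCAAT box and none a CHR string. Of the 29 genes with a promoter that were not called, 6 held an E2F string, 16 a CCAAT box and 4 a CHR string. A match of letters is a description of the promoter and not evidence of binding.

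The libraries held between 25320109 and 29105710 counts. Of the listed genes, 17865 were tested, of which 6.49% were higher and 7.27% lower in the stressed brains at an adjusted p under 0.05 (edgeR's quasi-likelihood test with sex in the model, Benjamini-Hochberg adjustment). Neuron markers summed to between 8843 and 9250 CPM (counts scaled to a common library total with TMM factors) in the 8 brains, and liver markers to at most 0.579 CPM and skeletal muscle markers to at most 3.83 CPM. Other tissue at the edge of the brain was uneven. Meningeal fibroblast markers summed to 63.3 CPM in stress M28 and to at most 31.9 CPM in each other brain, with 3 of 5 tested markers higher, and choroid plexus markers to 77.0 CPM in stress F34 and at most 51.9 CPM elsewhere, with 3 of 6 higher. Of 8 endothelial markers 6 fell, with sums of 153.9 to 163.5 CPM against 174.8 to 192.4 CPM in the controls. Of the erythroid markers, 2 of 8 were higher and 1 was lower, and microglia markers summed to 37.6 to 40.6 CPM in the controls and 35.1 to 40.4 CPM after stress. The part of these cells in the results below was not tested, but the counts without stress M28 and without stress F34 are given beside them.

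Of the 44 repair genes, 11 (25.0%) were higher in the stressed brains and 0 were lower, beside 6.49% higher and 7.27% lower among all genes tested. The genes were chosen with earlier results of these data known. This count and those below therefore describe the list and are not an independent result. The 11 were Fancd2, Fanci, Brca1, Rad51ap1, Rad54l, Exo1, Blm, Topbp1, Clspn, Rad18 and Xrcc5, with rises between 13.2% and 30.2%. At an unadjusted p under 0.05, 23 were higher and 0 were lower (13.2% and 13.7% of all genes). DESeq2's Wald test also called 0 lower. The log2 fold change (Log2FC, stress vs. control) was above 0 for 37 of the 44 genes, against 50.6% of all genes, and below 0 for 7, against 49.4%. Its median was 0.14 (range -0.09 to 0.38), against 0.00 over all genes tested. In 15 of the 44 genes, all 4 stressed brains lay above all 4 control brains (8.2% of all genes), and in 0 genes below (8.22%). The number of rises was 9 without stress M28 and 7 without stress F34. Without stress M29 it was 6. DESeq2 called 7 genes in place of 11. Calls fell over all genes too, from 1160 higher to 950 without stress M28 and 891 without stress F34. They fell to 736 without stress M29 and to 748 with DESeq2. In bulk RNA, more cells that use a gene and more RNA of it per cell cannot be told apart.

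**Figure D1:**
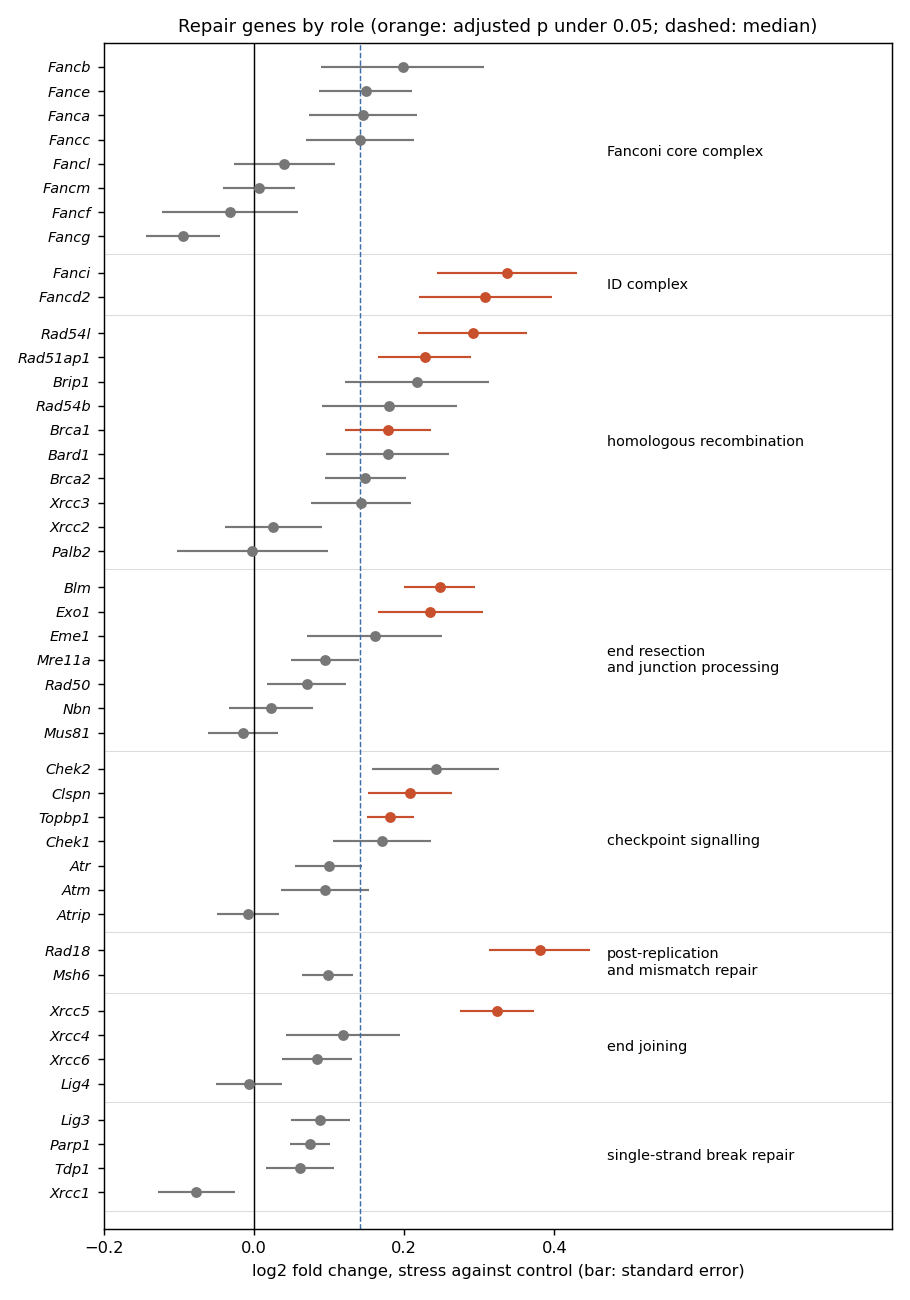
Log2 fold change of the 44 repair genes, stress against control (points, with the standard error as bars), grouped by role, with genes past an adjusted p of 0.05 in orange and the median of 0.14 as a dashed line. Both genes of the ID complex are orange and none of the 8 Fanconi core genes or the 4 single-strand break repair genes is. Among all genes tested, 6.49% were higher and 7.27% lower.

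Levels of the genes among themselves were compared per length, as TPM, where each count is divided by the exon length of the gene and scaled to a common total per brain. Parp1, which senses strand breaks, stood at the top with 132 ± 3.85 TPM (SD, n = 4) in the control brains. It was followed by the mismatch repair gene Msh6 at 56.3 ± 1.83 TPM, which lay apart from Xrcc1 at 34.1 ± 2.27 TPM, while Xrcc1, Lig3 (32.3 ± 1.28 TPM) and Xrcc5 (31.3 ± 1.66 TPM) did not differ beyond their spread. The lowest levels were those of the helicase gene Brip1 (2.57 ± 0.270 TPM) and of Palb2 (2.89 ± 0.199 TPM), which bridges BRCA1 and BRCA2. Among the genes that rose, Xrcc5 and Topbp1 ranked 5 and 8 of the 44, and the other 9 ranked between 23 and 42. The smallest count of any of the 44 genes in any brain was 122.

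The Fanconi core complex is the ubiquitin ligase of the pathway. None of the 8 core genes passed edgeR's test (6.49% higher and 7.27% lower among all genes) or DESeq2's. At an unadjusted p under 0.05, 1 of the 8 was higher (13.2% of all genes). The median Log2FC of the core genes was 0.09, with 6 above 0. Fance, which couples the core to FANCD2, had the smallest p of them, at 17.5, 15.4, 16.9 and 14.7 CPM in control F36, F37, M30 and M31 and 19.2, 16.5, 17.7 and 17.9 CPM in stress F34, F35, M28 and M29. The groups overlapped, since stress F35 lay below 2 control brains (Log2FC 0.15 ± 0.06 SE, adjusted p = 0.118). The values of the other core genes ran from -0.09 for Fancg to 0.20 for Fancb, whose product sits with the ubiquitin ligase FANCL in the catalytic module. Fancl itself had a Log2FC of 0.04 ± 0.07 and Fancm, the translocase that brings the core to a stalled fork, of 0.01 ± 0.05. Exon bases shared with another gene made up 10.5% of Fanca, 13.7% of Fancl, 14.96% of Fancf and 18.6% of Fancc.

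Both genes of the ID complex rose (6.49% higher among all genes). Fanci was at 5.53, 5.68, 5.59 and 5.31 CPM in the 4 control brains, in the order above, and at 7.61, 6.40, 6.07 and 7.81 CPM in the 4 stressed brains. All stressed brains lay above all controls, with stress F34 and M29 highest, and the rise was 26.3% (Log2FC 0.34 ± 0.09, adjusted p = 0.0160). Fancd2 was at 6.77, 9.17, 9.18 and 7.77 CPM in the controls and 11.33, 9.599, 10.04 and 9.742 CPM after stress. The groups did not overlap, but control F37 and M30 came close to the lowest stressed brain (Log2FC 0.31 ± 0.09, adjusted p = 0.0202). The Fancd2/Fanci count ratio within a brain overlapped between the groups, at 1.49 ± 0.192 in the controls and 1.47 ± 0.168 after stress. A share of 16.0% of the exon bases of Fanci overlaps Polg, and reads from that stretch cannot be assigned with certainty. Without stress F34 neither gene was called. Fancd2 was also lost without control F36 or M31 (adjusted p at most 0.116 over the fits that left out 1 brain), and Fanci without stress M29 (at most 0.106) and by DESeq2.

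Of the 10 genes of homologous recombination, 3 rose and 0 fell (6.49% higher and 7.27% lower among all genes), and the median Log2FC was 0.18. Rad54l, which encodes a DNA motor protein of recombination, was at 9.829, 10.96, 12.59 and 11.28 CPM in the controls and 14.67, 12.01, 13.28 and 14.61 CPM after stress. Control M30 lay above stress F35, so the groups overlapped, and the rise of 22.4% passed the test (Log2FC 0.29 ± 0.07, adjusted p = 0.00777). Without stress F34 its adjusted p was 0.0541. Of its exon bases, 15.4% are shared with Lrrc41.

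Rad51ap1, whose product takes part in strand pairing, was at 11.9, 11.9, 11.9 and 11.5 CPM in the controls and 14.3, 12.9, 13.8 and 14.2 CPM after stress. The controls lay close together and every stressed brain lay above them (Log2FC 0.23 ± 0.06, adjusted p = 0.0143). Without control M31, stress F34 or stress M29 the call was lost, with an adjusted p of at most 0.0592, and likewise by DESeq2 (adjusted p = 0.0570). Brca1, which steers breaks towards recombination, was at 15.98, 15.02, 14.95 and 16.98 CPM in the controls and 17.96, 16.87, 18.89 and 17.48 CPM after stress. Control M31 lay slightly above stress F35, and the call was close to the threshold (Log2FC 0.18 ± 0.06, adjusted p = 0.0393). It was lost in 5 of the 8 fits without 1 brain (control F37 or M30, stress F34, M28 or M29, adjusted p at most 0.173), by DESeq2 (adjusted p = 0.124), without a filter on low counts (0.0599) and without the sex covariate (0.0528). Brca2 was higher in all 4 stressed brains but did not pass the test (Log2FC 0.15 ± 0.05, adjusted p = 0.0692). Bard1, the partner of BRCA1, had nearly the same Log2FC as Brca1 with a larger error (0.18 ± 0.08, adjusted p = 0.1603), and the Brca1/Bard1 count ratio was 2.23 ± 0.241 in the controls and 2.24 ± 0.2995 after stress. The values of Brip1, Rad54b and Xrcc3 lay between 0.14 and 0.22, and those of Xrcc2 and Palb2 at 0.03 and 0.00. Of the exon bases of Rad54b, 35.9% are shared with Fsbp.

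Among the 7 genes that resect ends or resolve junctions, 2 rose and 0 fell (6.49% higher and 7.27% lower among all genes). Blm, the helicase that dissolves joined molecules, was at 20.9, 21.2, 22.7 and 21.1 CPM in the controls and 24.6, 23.9, 26.0 and 27.4 CPM after stress. The groups did not overlap, and both stressed males lay above both stressed females (Log2FC 0.25 ± 0.05, adjusted p = 0.000840). Exo1, the nuclease of long-range resection, was at 10.5, 8.96, 10.4 and 9.53 CPM in the controls and 10.8, 11.1, 12.3 and 12.1 CPM after stress. The groups were apart by a narrow margin between control F36 and stress F34 (Log2FC 0.23 ± 0.07, adjusted p = 0.0246), and the call was lost without control F37 or M31 or without stress M28 or M29 (at most 0.101) and by DESeq2 (adjusted p = 0.0865). The genes of the MRN complex, which binds a break and starts its resection, had lower Log2FC values, at 0.09 ± 0.05 for Mre11a, 0.07 ± 0.05 for Rad50 and 0.02 ± 0.06 for Nbn, and none passed. The nuclease gene Mus81 had a Log2FC of -0.02 ± 0.05 and its partner Eme1, which shares 10.7% of its exon bases with Lrrc59, of 0.16 ± 0.09.

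Of the 7 checkpoint genes, 2 rose and 0 fell (6.49% higher and 7.27% lower among all genes). Both belong to signalling by the kinase ATR, as do Atr, Atrip and Chek1, which were not called. Topbp1, the activator of ATR, was at 68.3, 67.9, 71.0 and 69.0 CPM in the controls and 77.9, 75.5, 79.7 and 80.1 CPM after stress. The lowest stressed brain, F35, lay above the highest control, M30 (Log2FC 0.18 ± 0.03, adjusted p = 0.000260). Clspn, the adaptor that presents CHK1 to ATR, was at 14.9, 15.48, 16.5 and 17.1 CPM in the controls and 18.0, 17.7, 17.9 and 20.4 CPM after stress. Stress M29 stood above the other stressed brains, and without it the call was lost (adjusted p = 0.0825), although the groups did not overlap (Log2FC 0.21 ± 0.06, adjusted p = 0.0127 with all brains). The kinase genes had Log2FC values of 0.24 ± 0.08 for Chek2 (adjusted p = 0.0569), 0.17 ± 0.07 for Chek1, 0.10 ± 0.04 for Atr and 0.09 ± 0.06 for Atm, and the ATR partner Atrip of -0.01 ± 0.04, with 16.0% of its exon bases shared with Trex1. The annotation also lists the pseudogenes Topbp1-ps1 and Topbp1-ps2, which had 0 counts in every brain.

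Of the 2 genes of post-replication and mismatch repair 1 rose, and of the 4 genes of end joining 1 (6.49% higher among all genes). Rad18, the ubiquitin ligase that marks PCNA at a stalled fork, was at 8.01, 8.29, 8.74 and 9.10 CPM in the controls and 10.54, 10.98, 11.36 and 11.57 CPM after stress. The groups were well apart, and its Log2FC was the highest of the 44 genes (0.38 ± 0.07, adjusted p = 0.000386). The mismatch repair gene Msh6 was higher in all stressed brains with a smaller difference (Log2FC 0.10 ± 0.03, adjusted p = 0.0564).

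Xrcc5, which encodes the KU80 subunit of the ring that caps broken ends, was at 19.9, 19.9, 22.0 and 21.0 CPM in the controls and 26.3, 23.1, 27.2 and 26.9 CPM after stress. Every stressed brain was above every control, and the gene had the smallest p of the 44 (Log2FC 0.32 ± 0.05, adjusted p = 8.018e-05). Its partner Xrcc6, which encodes KU70, had a Log2FC of 0.08 ± 0.05 (adjusted p = 0.259). The Xrcc5/Xrcc6 count ratio, which needs no scaling between libraries, was 0.774, 0.785, 0.838 and 0.842 in the controls and 0.944, 0.896, 1.05 and 0.941 after stress. The ratios did not overlap, and the difference of 0.24 on the log2 scale had a p of 0.0286 by an exact two-sided permutation test, the smallest that 4 against 4 allows, and of 0.228 after adjustment over the 8 pairs of partners examined. The ligase complex of end joining had Log2FC values of 0.12 ± 0.08 for Xrcc4 and -0.01 ± 0.04 for Lig4.

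**Figure D2:**
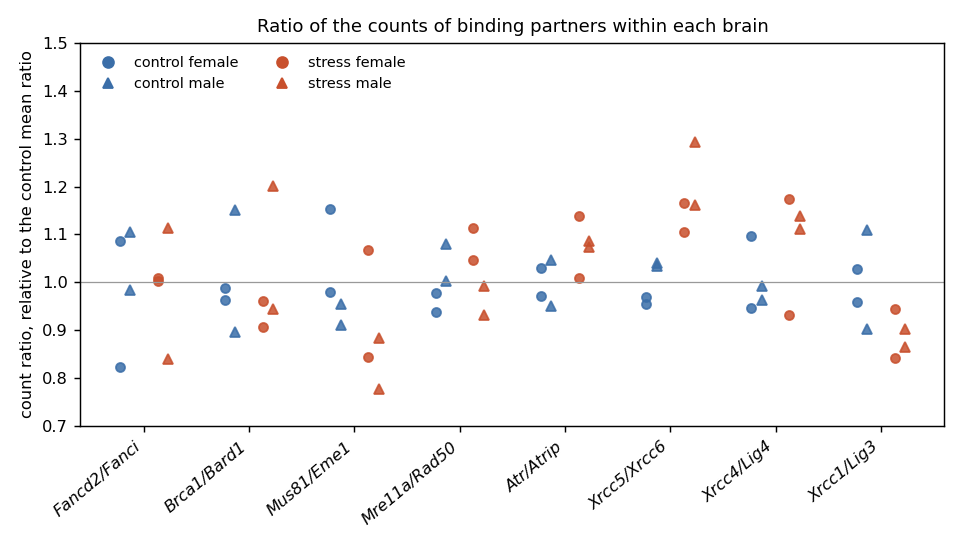
Ratio of the counts of 2 binding partners within each brain, divided by the mean ratio of the control brains, for 8 pairs (circles females, triangles males, blue control, orange stress). Only for Xrcc5/Xrcc6 do the 4 stressed brains lie apart from the 4 controls.

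In the remaining 7 pairs the ratios of the groups overlapped. The exact p was 0.0571 for Xrcc1/Lig3, 0.0857 for Atr/Atrip and at least 0.257 for Fancd2/Fanci, Brca1/Bard1, Mus81/Eme1, Mre11a/Rad50 and Xrcc4/Lig4, and none passed after adjustment. A pair that alone lay apart could not have passed, since the smallest possible exact p, 0.0286, became 0.228 for Xrcc5/Xrcc6. The adjusted test could therefore not decide on a single pair.

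None of the 4 genes of single-strand break repair passed edgeR's test (6.49% higher and 7.27% lower among all genes) or DESeq2's. At an unadjusted p under 0.05, 2 of the 4 were higher (13.2% of all genes), and the median Log2FC of the 4 was 0.07. Parp1 had the smallest p, at 175.5, 179.8, 186.5 and 181.8 CPM in the controls and 187.8, 185.5, 197.9 and 190.9 CPM after stress. Only control M30 reached the range of the stressed brains (Log2FC 0.07 ± 0.03, adjusted p = 0.0644). The ligase gene Lig3 had a Log2FC of 0.09 ± 0.04 and Tdp1, which clears trapped topoisomerase, of 0.06 ± 0.04. The scaffold gene Xrcc1 had a Log2FC of -0.08 ± 0.05. Of the exon bases of Lig3, 25.1% are shared with Rffl.

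**Figure D3:**
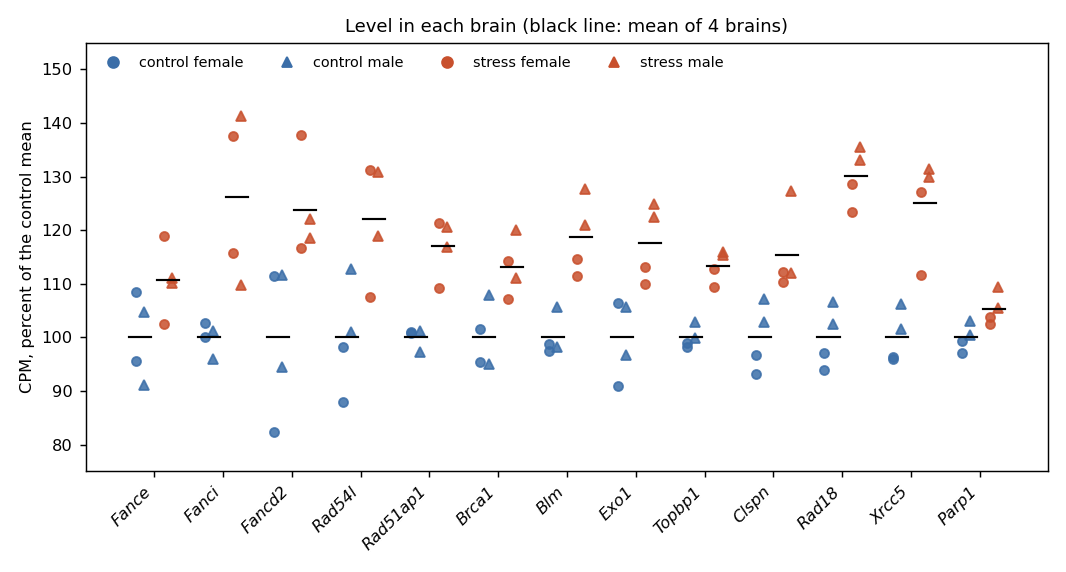
CPM of 13 repair genes in each brain, as a percent of the mean of the 4 control brains (circles females, triangles males, blue control, orange stress, black lines the group means). The stressed brains lie above all controls for 9 of the 13 genes and overlap them for Fance, Rad54l, Brca1 and Parp1. The 13 were chosen by their p in this contrast, so their separation follows in part from that choice. Among all genes tested, 8.2% lay apart and higher.

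The stressed brains were not alike over the set. Stress F35 had the lowest value of the 4 stressed brains for 24 of the 44 genes, and stress M29 and F34 the highest for 16 and 15. Among the controls, M30 was highest for 18 genes and F36 lowest for 16. The summed CPM of the 44 genes was 1013, 1022, 1056 and 1037 in the controls and 1120, 1064, 1120 and 1117 after stress, so that stress F35 lay nearest to the controls. The 4 genes called in all 8 fits that left out 1 brain and under all 7 other settings were Blm, Topbp1, Rad18 and Xrcc5.

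Females and males were then compared, with 2 brains of each sex in each group. The Log2FC was above 0 in both sexes for 34 of the 44 genes, against 33.2% of all genes tested, and below 0 in both for 3. The median was 0.14 in females and 0.12 in males. Within females, Topbp1, Rad18 and Xrcc5 passed the test (1.66% of all genes were higher and 2.26% lower), and within males the same genes and Blm (2.96% and 3.83%). The Log2FC of Xrcc5 was 0.32 in females and 0.33 in males, and that of Rad18 was 0.40 and 0.36. For no member did the stress effect differ between the sexes at an adjusted p under 0.05 (0.0056% of all genes) or at an unadjusted one (6.31%) in edgeR's interaction test. The largest gap between the sexes relative to its error was that of Rad50, with -0.03 in females and 0.17 in males (difference 0.20 ± 0.10, unadjusted p = 0.0524, adjusted p = 0.780).

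**Figure D4:**
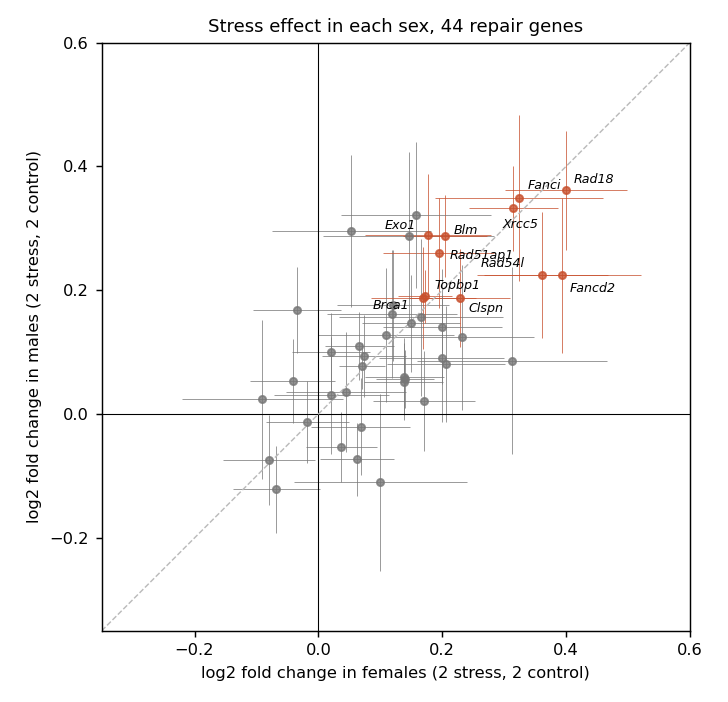
Log2 fold change in males against that in females for the 44 repair genes, with standard errors as bars, genes called over both sexes in orange and the line of equal change dashed. The 11 called genes lie above 0 in both sexes, and 7 of the 44 genes have opposite signs.

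The rest of the repair machinery was described from a list of 118 other genes, of which 117 were tested. Of these, 20 rose (17.1%) and 1 fell, beside 6.49% higher and 7.27% lower among all genes, with a median Log2FC of 0.07. The 5 with the smallest p among the rises were Tdg, a glycosylase of base excision (Log2FC 0.19 ± 0.03, adjusted p = 3.7e-05), Tipin of the fork protection complex (0.29 ± 0.04), Usp1, which removes ubiquitin from FANCD2 (0.22 ± 0.03), the glycosylase gene Neil3 (0.39 ± 0.06) and Uhrf1, which reads methylated DNA (0.24 ± 0.04). The 1 fall was that of Rad52, an annealing protein of recombination, at 21.1 ± 0.615 CPM in the controls and 18.7 ± 0.129 CPM after stress (n = 4 each, Log2FC -0.17 ± 0.05, adjusted p = 0.0212), and it was not called by DESeq2. Of the 11 checkpoint partners on the list 6 rose, of the 15 Fanconi partners 3, of the 16 recombination partners 2, of the 6 mismatch repair partners 2, of the 18 tested base excision partners 4, of the 10 nucleotide excision partners 2 and of the 13 chromatin signalling partners 1. Of the 12 junction partners, the 8 end joining partners and the 8 bypass polymerases and direct reversal genes 0 were called by edgeR. At an unadjusted p under 0.05, 4, 4 and 2 of them were higher, beside 13.2% of all genes. The median Log2FC of the Fanconi partners was -0.03, with 6 of 15 above 0.

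The level of dividing-cell genes moved with the repair genes, and their part in the rise was not tested. Of 43 S-phase genes 22 rose and 0 fell, of 54 G2/M genes 41 and 0, and of 39 genes of the replication machinery 14 and 0. The shares over all genes were 6.49% higher and 7.27% lower. The lists are not separate, since 14 genes are on both the S-phase and the replication list, and 8 of the other repair genes, Tipin, Usp1 and Uhrf1 among them, are also on the S-phase list. Cdc25c is on both the other repair and the G2/M list, and Gtse1 on both the G2/M list and that of the p53 targets (below). The smallest p-values were those of the ribonucleotide reductase genes Rrm2 (Log2FC 0.29 ± 0.03) and Rrm1 (0.21 ± 0.03) and of Tipin in the S-phase list, of Cdca3 (0.38 ± 0.05), Kif23 (0.38 ± 0.05) and Top2a (0.24 ± 0.03) in the G2/M list, and of Rrm2, Rrm1 and the polymerase gene Pole (0.31 ± 0.04) in the replication list. Rad51ap1, Exo1, Blm and Clspn are on the S-phase list themselves, and all 4 were called. No repair gene of the set is on the G2/M list. Of the 40 genes on neither list, 7 were called higher (17.5%, beside 6.49% of all genes), and the summed CPM of the 40 was 6.46% higher after stress. Absence from these lists does not show that a gene is used outside dividing cells. Without the 4 shared genes, the S-phase list rose in summed CPM by 9.41%, beside 9.06% for the G2/M list, 9.44% for the replication list and 7.08% for the 44 repair genes.

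**Figure D5:**
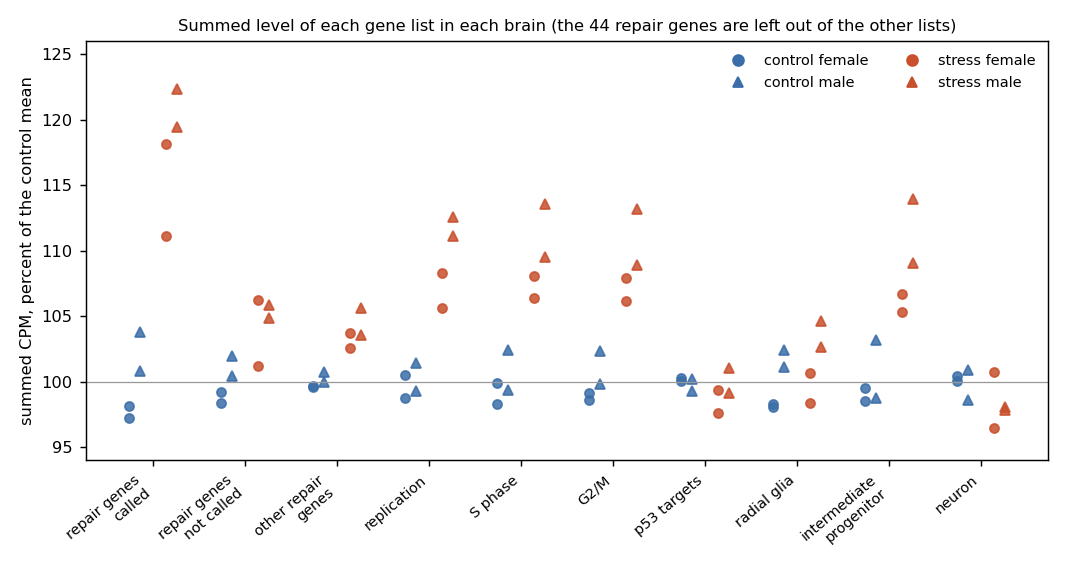
Summed CPM of each gene list in each brain, as a percent of the mean of the 4 control brains (circles females, triangles males, blue control, orange stress), with the 44 repair genes left out of the other lists. The repair genes that rose were chosen by this contrast and are shown for scale, while the S-phase, G2/M and replication lists lie higher in all 4 stressed brains and the p53 targets overlap.

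Within the stress group the order of the brains was not the same for both kinds of genes. Stress M29 had the highest sums of S-phase (1858 CPM) and G2/M genes (4645 CPM), while the sum of the 44 repair genes was alike in stress F34, M28 and M29. Stress F35 was lowest for all of these lists (1740, 4355 and 1064 CPM).

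Activated p53 answers DNA damage by inducing a known set of targets, and these were set beside the repair genes. Of 23 tested p53 target genes 1 rose (4.35%) and 3 fell (13.0%), beside 6.49% higher and 7.27% lower among all genes. The median Log2FC of the targets was 0.00. The cell cycle inhibitor gene Cdkn1a fell from 27.8 ± 1.67 to 21.9 ± 0.942 CPM (n = 4 each, Log2FC -0.34 ± 0.05, adjusted p = 5.9e-05) and the death gene Bbc3 from 17.6 ± 0.451 to 14.7 ± 1.002 CPM (Log2FC -0.26 ± 0.06, adjusted p = 0.00332). Trp53inp1 rose (Log2FC 0.13 ± 0.03, adjusted p = 0.00566). The summed CPM of the targets overlapped, at 915.6 to 924.8 in the controls and 899.9 to 931.2 after stress.

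Markers of neural cells were set beside the repair genes, and they did not all move the same way. Of 8 intermediate progenitor markers 6 rose, with sums of 643.7 to 674.0 CPM in the controls and 688.2 to 744.5 CPM after stress. Of 10 radial glia markers 4 rose and 0 fell, with a median Log2FC of -0.03 and sums of 2037 to 2128 CPM against 2043 to 2174 CPM. Of 12 neuron markers 6 fell and 1 rose, with sums of 9041 to 9250 CPM against 8843 to 9241 CPM. The part of these cells in the rise of the repair genes was not tested.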

How the data were processed

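RNA of 8 brains was examined, 4 per group, with 1 library each, and groups were taken from the sample labels. The authors used Trim Galore on paired reads of 100 bases (quality and length minimum both 20), TopHat2 2.1.1 for alignment to mm10, and counted reads per GENCODE vM20 gene with featureCounts 1.6.3, with no option given for strand, overlapping genes or multiple places. The deposited values are raw counts per gene. Reads from exon bases shared with another gene, on either strand, can therefore not be assigned to either gene. By default such reads are left uncounted, so the levels per length of these genes may be too low. The share of exon bases that overlap another gene was computed from the annotation.

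Genes were kept by filterByExpr (minimum count 10, by group), TMM-normalized and tested with glmQLFit and glmQLFTest of edgeR 4.0.16 (limma 3.58.1, R 4.3.3) with sex and condition, with Benjamini-Hochberg adjustment over 17865 genes. The study's model also held batch, which its list does not give for these libraries. The test was checked on simulated counts, where it made somewhat more false calls than the threshold aims at. Alternatives were DESeq2 1.42.0, other scaling factors, no filter, no sex term, removal of an exon length trend and leaving out each brain. The members and lists were chosen with earlier results of these data known, and the partner ratios after the data were seen. Values in each brain are given for up to 3 called genes with the smallest p in each role, or else for the gene with the smallest p; of the other repair genes 5 in each direction, and of the S-phase, G2/M, replication and p53 lists 3, were named by p. S-phase and G2/M lists are those of Seurat as mouse symbols. The depth of 25320109 to 29105710 counts gave at least 122 counts for each member in each brain.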

Additional observations from a re-analysis of the deposited data

Results flagged for a closer look

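In 8 of the 88 groups of 4 brains (44 genes in 2 groups), 1 brain stood far from the other 3, by the gap to its neighbour as a share of the range of the group, where chance alone gives about 1 in 20 groups, or 4.4 of 88. In the stress group these were Fancm, low in F35 (24.1 CPM, others 26.8 to 27.1, share 0.929), Bard1, low in M28 (7.04 CPM, others 8.29 to 8.37, share 0.944), Palb2, high in F34 (6.81 CPM, others 4.84 to 5.14, share 0.852), Clspn, high in M29 (20.4 CPM, others 17.7 to 18.0, share 0.889), and Lig4, high in F35 (31.5 CPM, others 29.6 to 29.9, share 0.856). In the control group these were Rad51ap1, low in M31 (11.5 CPM, share 0.886), Nbn, low in F37 (17.0 CPM, others 19.4 to 19.8, share 0.853), and Blm, high in M30 (22.7 CPM, others 20.9 to 21.2, share 0.836). No brain held more than 2 of the 8.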

How the results depend on the processing

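No paired analysis was possible because the animal numbers of the labels are not shared between the groups. All 11 genes that rose kept their direction under all 15 alternatives, as did 37 of the 44 members. The number of members called higher was 11, and 7 with DESeq2's Wald test, 10 without a filter on low counts, 12 without the sex covariate and 13 with the exon length trend removed. Leaving out 1 brain gave 6 to 12, with the lowest values without stress M29 (6) and stress F34 (7). With DESeq2, Fanci and Rad51ap1 (adjusted p = 0.0570 each), Exo1 and Brca1 were no longer called. Over all genes DESeq2 called 748 higher and 911 lower, against 1160 and 1298 by edgeR, and edgeR called 736 and 854 without stress M29. The median Log2FC of the members was between 0.10 (without stress F34) and 0.14 when 1 brain was left out, and 0.14 under the other settings. Of the other repair genes, DESeq2 called 0 lower and leaving out 1 brain gave 0 to 2, and of the p53 targets 1 to 2 were called higher. Of the members not called, Fance was called without stress F35, Atm without control M31, Chek2 without stress F34 and Msh6 without control M31, and both Chek2 and Msh6 also without the sex covariate and with the exon length trend removed. The log2 difference of the Xrcc5/Xrcc6 ratio was between 0.20 and 0.27 when 1 brain was left out. Counting the bases before the start site alone, E2F strings were in 15.8%, CHR strings in 7.89% and CCAAT boxes in 52.6% of member promoters. The causes were not tested.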
